A study of Mus musculus with 27 samples.

Results

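The genes described here make the protein-synthesis machinery that works beside the ribosome: the translation initiation factors, the elongation factors and the cytosolic aminoacyl-tRNA synthetases. Members were taken by a rule on gene symbols, set with earlier results of these data known. It took probe sets with 1 gene symbol that starts with Eif or Eef and a digit, or that is a cytosolic synthetase. The Eif2ak kinases and the Y-linked copies were left out. This gave 63 genes of 8251 on the array (83 of 12422 probe sets), each read from its probe set with the highest mean. They are 36 initiation factor genes, 8 elongation genes and 19 synthetases. The symbol rule also took in Eef1akmt1, which encodes a methyltransferase that acts on eEF1A, and Eef2k, which encodes the kinase of eEF2. Eif2s1, Eif4g1, Eef1e1 and Dars were not analysed here.

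Initiation factors bring the first tRNA, the small ribosomal subunit and the capped end of an mRNA together, and eIF4E binding the cap is a step that growth signals control. Elongation factors carry charged tRNAs to the ribosome and move it along the message, and most synthetases load 1 kind of amino acid onto its tRNAs. Myc is known for driving cell growth, and genes of this machinery are among its known targets in other cells. A second factor, Atf4, is known to raise many synthetase genes when amino acids run short.

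RNA came from islets cut out of the mouse pancreas by laser capture, with 27 arrays in 9 groups of 3. All mice carried 2 transgenes under an insulin promoter, so that beta cells make them: MycER, a Myc fused to a receptor domain and active while its drug is bound, and BclXL, a survival protein. Untreated mice were 1 group, and 4 groups were taken at 2, 4, 8 and 24 h from a single 4-hydroxytamoxifen injection. A further group had tamoxifen every day for 21 days, and the last 3 had stopped such a course 2, 4 or 6 days before. The labels name no mice without MycER and no mice injected without drug, so effects of the injection, the drug and MycER cannot be told apart. They give no ages, and they do not say that the 3 arrays of a group came from 3 mice, and a p-value here covers no more than the spread among these arrays, which may be technical.

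Levels are log2 RMA signals as deposited. The median over probe sets lay between 6.91 and 7.01 on every array. The 11 measured beta cell markers averaged between 9.53 and 10.62 on each array, and the islet label thus had its markers. Other cells were also present: the mean of 17 acinar (exocrine) markers ran from 11.27 to 11.83 on the 24 h arrays, from 7.26 to 7.78 at 21 days and from 7.99 to 10.67 in untreated islets. The mean of 48 leukocyte markers was high on 4 arrays: 1 of the 2 h arrays (replicate 1), 1 of the 8 h arrays (replicate 3), and 1 each from 2 days off (replicate 2) and 6 days off (replicate 1). In RNA from a mixed tissue, fewer cells of a type and less RNA per cell cannot be told apart. The dimmest members were set beside 15 bacterial control probe sets, which no mouse RNA should bind. The mean signal of Eef1g (3.32) lay below all 15 and that of Eif4enif1 (4.45) above 10 of them, while Eif2s2 (5.55) lay above 13 and Eif4e (5.83) above 14.

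The promoters of the members were searched for 2 motifs on both strands: CACGTG, the E-box that Myc binds with its partner Max, and TGATGNAA, the core of the amino acid response element that Atf4 binds. RefSeq windows (GRCm38.p6, 250 bases before to 50 after a gene's start) were matched for 48 of the 63 genes, and Eif4ebp1, Nars, Lars, Vars, Wars, Hars and Rars are among the 15 without one. CACGTG was in 14 of the 48, or 29.2%, against 11.5% of the 6572 array genes with a window. TGATGNAA was in 7 of 48, or 14.6%, against 3% of those array genes, and 5 of the 7 were synthetases: Aars, Gars, Iars, Tars and Yars. A match describes letters in a window and not a bound site. The stretches below run 5′ to 3′ on the gene's strand, with the motif in capitals. In Iars, Tars and Gars TGATGNAA lies on the other strand, so the capitals show its complement read backwards. They show an E-box close to the start of Eef2, which encodes the factor that moves the ribosome along (chr10:81176531-81176630, plus strand), and of Farsb, the beta subunit of the phenylalanine synthetase (chr1:78488898-78488997, minus strand). Iars, for isoleucine (chr13:49682030-49682149, plus strand), and Tars, for threonine (chr15:11399630-11399738, minus strand), had both motifs near the start. Gars, for glycine, had the amino acid response motif (chr6:55037901-55038000, plus strand).
Eef2: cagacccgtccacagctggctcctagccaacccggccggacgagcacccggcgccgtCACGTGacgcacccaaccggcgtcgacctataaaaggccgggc
Farsb: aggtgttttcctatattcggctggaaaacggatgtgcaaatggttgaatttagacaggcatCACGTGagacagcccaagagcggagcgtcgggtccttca
Iars: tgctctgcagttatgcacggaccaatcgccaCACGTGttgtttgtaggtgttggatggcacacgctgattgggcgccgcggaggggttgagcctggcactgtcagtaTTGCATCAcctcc
Tars: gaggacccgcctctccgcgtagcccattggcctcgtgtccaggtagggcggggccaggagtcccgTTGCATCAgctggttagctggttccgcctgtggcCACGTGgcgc
Gars: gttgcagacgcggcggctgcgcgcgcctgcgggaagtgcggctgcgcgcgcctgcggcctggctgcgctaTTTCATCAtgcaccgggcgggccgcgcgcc

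Few members were called after a single injection. Eif4ebp1 was called at all 4 times, Eif3b at 8 h and Eif3l at 24 h, and no member was called lower at any of them. A call here is an adjusted p under 0.05 in limma over all 12422 probe sets. The counts of 1, 1, 2 and 2 of 63 members at 2, 4, 8 and 24 h were all higher. Of all genes, 0.412% were called higher and 0.0727% lower at 2 h, 0.57% and 0.339% at 4 h, 1.15% and 0.764% at 8 h, and 1.37% and 0.206% at 24 h. Member medians of the log2 change were 0.05, 0.08, 0.08 and 0.15, beside -0.06, -0.02, -0.05 and -0.04 over all genes. All 3 arrays lay above all untreated arrays for 6.17%, 5.04%, 5.88% and 7.51% of all genes at 2, 4, 8 and 24 h. The same held for 14.3%, 15.9%, 17.5% and 15.9% of members. All 3 arrays lay below for 10.1%, 6.36%, 9.4% and 8.73% of all genes. For members the shares below were 4.76%, 0%, 1.59% and 1.59%. These 4 comparisons share the untreated arrays. The cell mix also differed: acinar markers had medians of 1.45, 1.07 and 0.87 at 2, 4 and 8 h, with 0 of 17 called each time. At 24 h their mean was 11.49, beside 9.08 untreated. Of 11 beta cell markers, 1 was called lower at 4 h (median -0.24) and 2 at 8 h (median -0.67). The part of these shifts in the members' values was not tested.

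**Figure D1:**
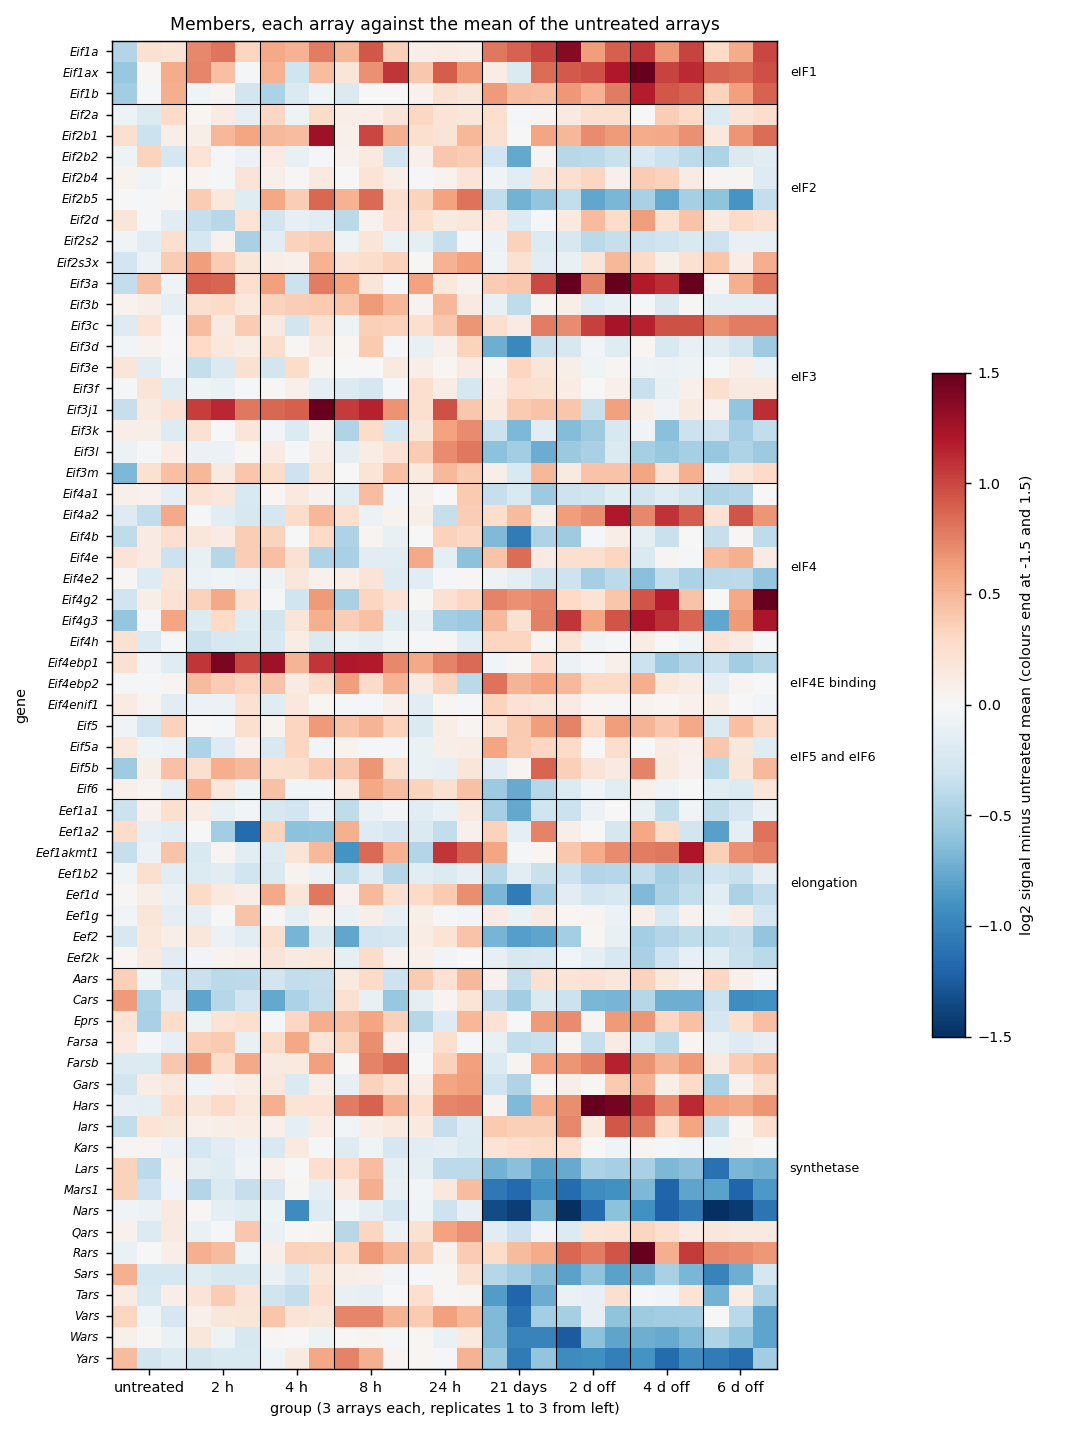
Log2 signal of the 63 members on each array minus the mean of the 3 untreated arrays, with genes in rows by role, arrays in columns by group and red for higher. Eif4ebp1 is red from 2 to 24 h and near white at 21 days, and Nars, Mars1, Lars, Wars and Yars are blue from 21 days on.

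Eif4ebp1 encodes 4E-BP1, which holds eIF4E away from its scaffold until growth signals release it. The untreated arrays read 7.65, 7.38 and 7.24. After injection the arrays read 8.49, 8.83 and 8.42 at 2 h, 8.69, 7.93 and 8.50 at 4 h, 8.63, 8.61 and 8.14 at 8 h, and 7.99, 8.17 and 8.27 at 24 h. All 12 arrays after injection lay above all 3 untreated arrays.
The log2 change was 1.16 ± 0.17 (SE, n = 3 against 3; 2.23-fold, adjusted p = 0.00325) at 2 h and 0.95 (adjusted p = 0.00644) at 4 h. It was 1.04 (adjusted p = 0.00279) at 8 h and 0.72 (adjusted p = 0.0316) at 24 h. At 21 days the arrays read 7.38, 7.44 and 7.71 and overlapped the untreated ones (log2 change 0.09, adjusted p = 0.78). At 4 days off they read 7.10, 6.88 and 6.98 and at 6 days off 7.09, 6.90 and 6.99, all below the untreated arrays, but 6 days off against untreated was not called (-0.43, adjusted p = 0.104). The 4 h call ended without replicate 3 at 4 h (adjusted p = 0.0622), and the 24 h call ended without any 1 of 4 arrays, with acinar and leukocyte levels in the model (adjusted p = 0.226) and with the Gapdh 3′ minus 5′ signal, a measure of RNA length after amplification, in it (adjusted p = 0.126). When the 6 arrays of a comparison were fitted alone, adjusted p lay at 0.102, 0.165, 0.146 and 0.107.

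Eif3b and Eif3l encode subunits of eIF3, the large complex that holds the small ribosomal subunit ready for the mRNA. Eif3b read 10.71, 10.75 and 10.51 untreated and 11.07, 11.30 and 11.16 at 8 h, a log2 change of 0.52 ± 0.12 (SE; adjusted p = 0.0237). The groups did not overlap, but the call ended without any 1 of 4 arrays (adjusted p from 0.0547 to 0.0866), and the gene's other probe set read -0.12 there (adjusted p = 0.632). Eif3l read 9.60, 9.65 and 9.80 untreated and 10.07, 10.39 and 10.47 at 24 h. That is 0.63 ± 0.11 (SE; adjusted p = 0.00351) with no overlap, and adjusted p = 0.0671 with the acinar and leukocyte levels in the model.

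Several other members lay above the untreated arrays without being called. Eif3j1 encodes eIF3j, a loosely held partner of eIF3 at the decoding site. It read 7.80, 8.28 and 8.37 untreated, 9.19, 9.28 and 8.94 at 2 h, 9.01, 9.05 and 9.85 at 4 h, and 9.20, 9.31 and 8.82 at 8 h. The groups did not overlap, and the log2 changes were 0.99 ± 0.32 (SE; adjusted p = 0.216), 1.15 (adjusted p = 0.101) and 0.96 (adjusted p = 0.143). Among synthetases, Vars reached 0.66 at 8 h (adjusted p = 0.0623) and Hars 0.74 (adjusted p = 0.121). At unadjusted p under 0.05, 15 members were higher and 2 lower at 8 h, and 13 were higher and none lower at 24 h. Of all genes, 7.08% were higher and 10% lower at that level at 8 h, and 6.86% and 5.7% at 24 h. The synthetases had a median of 0.15 at 8 h and 0.11 at 24 h, with none of 19 called.

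**Figure D2:**
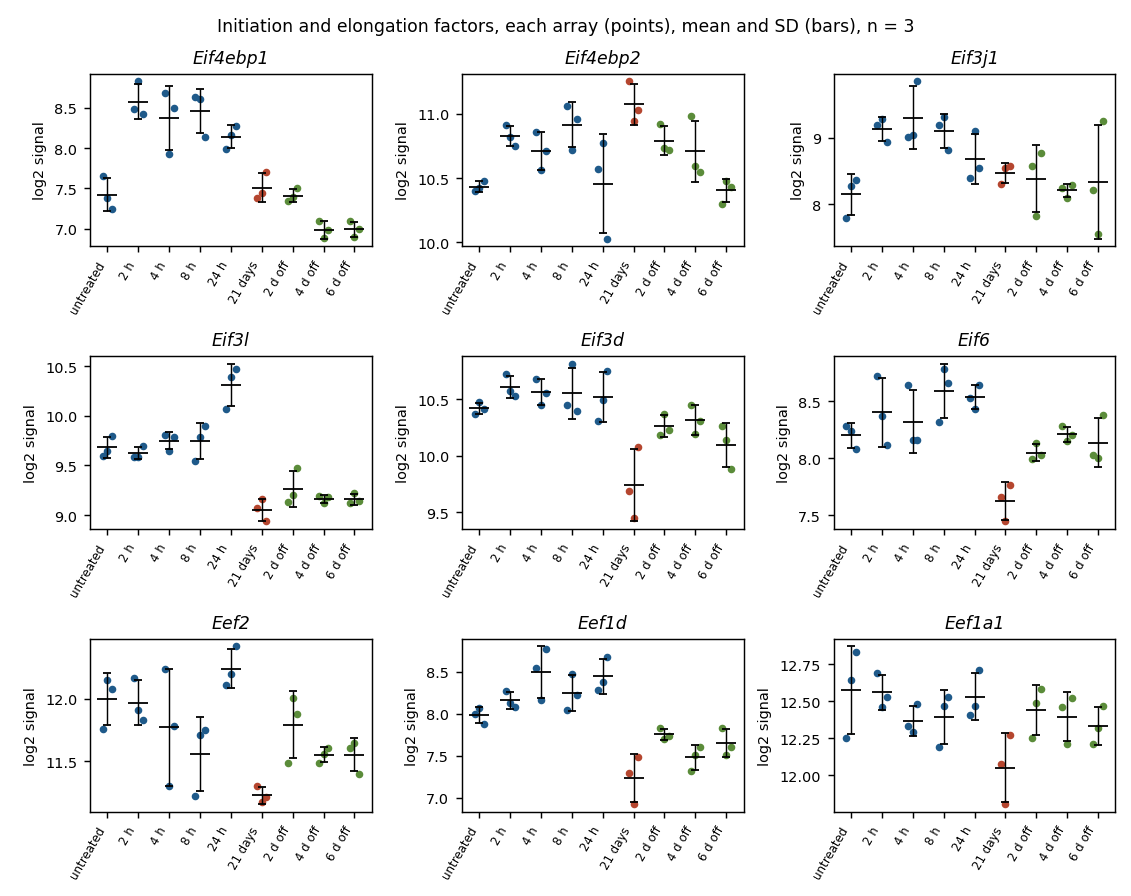
Log2 signal of 9 initiation and elongation factor genes on each array (points) by group, with the mean and SD of 3 arrays (bars), each panel on its own axis that does not start at 0. Eif4ebp1 stands at 7.93 to 8.83 from 2 to 24 h against 7.24 to 7.65 untreated, while Eif3l, Eif3d, Eif6, Eef2 and Eef1d have their lowest group mean at 21 days.

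After 21 days of tamoxifen, 17 members were called against untreated islets, 2 higher and 15 lower. Of all genes, 16.4% were called: 7.95% higher and 8.46% lower. The 15 lower members are 23.8% of the 63. They comprised 7 of 19 synthetases, 3 of 8 elongation genes and 5 of 36 initiation factor genes, while both higher members, Eif1a and Eif4ebp2, were initiation genes. The median log2 change was -0.27 for synthetases, -0.25 for elongation genes and 0.19 for initiation factors, beside 0.03 over all genes. A lack of overlap was common here. All 3 arrays at 21 days lay below all untreated arrays for 15% of all genes and above them for 16.7%, beside 25.4% and 12.7% of members. The beta cell markers also stood lower at 21 days, with 5 of 11 called lower and a median of -0.77. For acinar markers the median was -1.88, and limma called 0 of 17, with 7 of the 17 lower at unadjusted p under 0.05. The part of either shift in the members' values was not tested, and with the acinar and leukocyte levels in the model 17 members were called, 16 of them among the same 17.

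The 7 synthetases called lower were Nars, Mars1, Tars, Wars, Vars, Yars and Lars, which charge tRNAs for asparagine, methionine, threonine, tryptophan, valine, tyrosine and leucine. Nars read 9.04, 9.0 and 9.23 untreated and 7.75, 7.68 and 8.38 at 21 days. The 21 day arrays all lay lower, by 1.15 ± 0.22 on the log2 scale (SE; 2.22-fold lower, adjusted p = 0.00165). Mars1, whose product also charges the tRNA that starts every protein, read 9.52, 8.87 and 9.14 untreated and 8.11, 8.01 and 8.28 at 21 days. The groups did not overlap, and the difference was 2.06-fold (log2 change -1.04 ± 0.18 SE, adjusted p = 0.000688).
Wars read 9.74, 9.69 and 9.57 untreated and 9.01, 8.66 and 8.66 at 21 days, with no overlap. Its log2 change was -0.89 ± 0.14 (SE; adjusted p = 0.000254), and its other 2 probe sets read -0.97 (adjusted p = 0.00188) and -1.17 (adjusted p = 0.000203). Tars read 7.62, 7.27 and 7.59 untreated and 6.65, 6.30 and 6.75 at 21 days, again without overlap (log2 change -0.93, adjusted p = 0.00188).

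Vars, Lars and Yars were lower by 0.71 to 0.76 on the log2 scale. The untreated and 21 day arrays of each did not overlap. For Vars the log2 change was -0.76 (adjusted p = 0.00624) and for Lars it was -0.71 (adjusted p = 0.00529). Yars was weaker: its log2 change was -0.74 (adjusted p = 0.027), its other probe set read 0.33 (adjusted p = 0.0689), and the call ended without replicate 1 of the untreated group (adjusted p = 0.155) or replicate 2 at 21 days (adjusted p = 0.141). Of the 12 synthetases not called, Sars was closest at -0.52 (adjusted p = 0.0515), and Rars stood at the other end at 0.43 (adjusted p = 0.115). Eprs, the fused glutamate and proline synthetase, stood at 0.29 (adjusted p = 0.485).

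**Figure D3:**
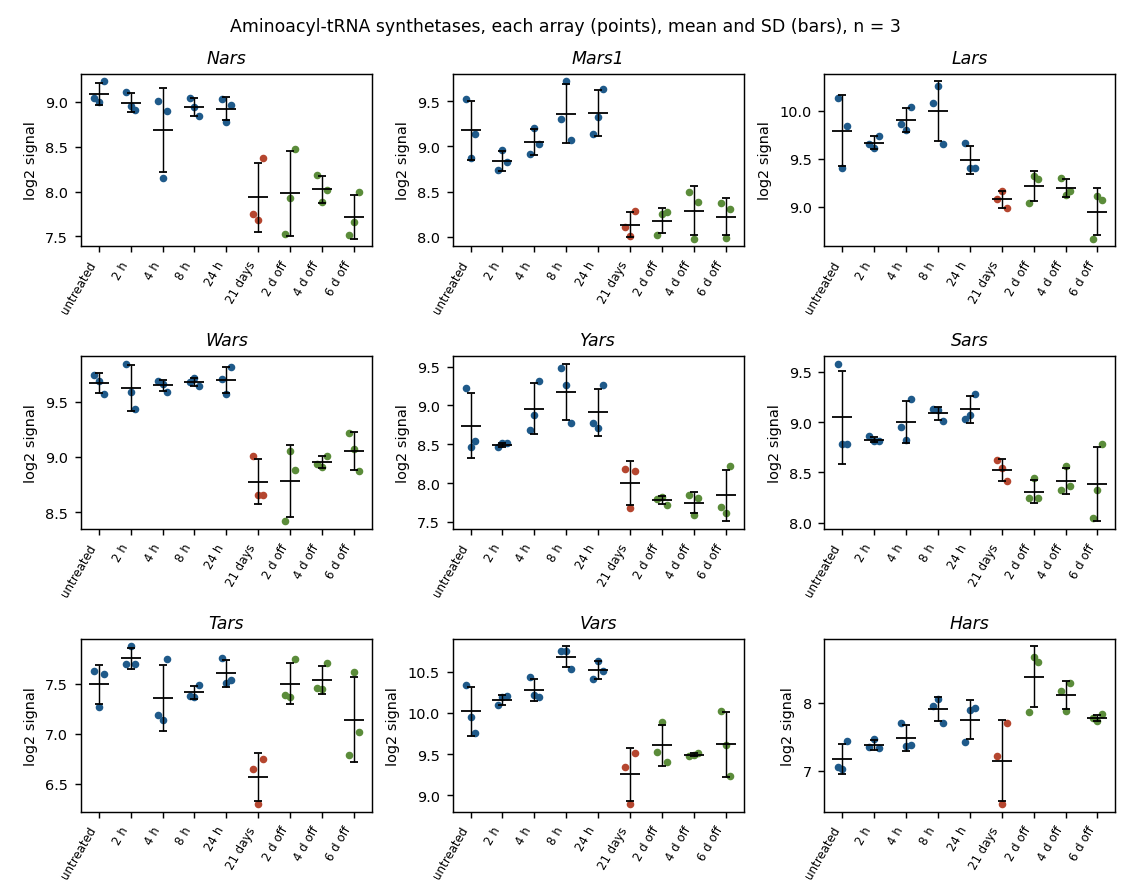
Log2 signal of 9 synthetase genes on each array (points) by group, with the mean and SD of 3 arrays (bars), each panel on its own axis that does not start at 0. Nars, Mars1 and Wars stay low from 21 days through 6 days off, whereas Tars reads 6.30 to 6.75 at 21 days and 7.37 to 7.74 at 2 days off.

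The elongation genes called lower at 21 days encode parts of both steps of the cycle. Eef2, the factor that moves the ribosome along, read 11.76, 12.15 and 12.08 untreated and 11.30, 11.17 and 11.21 at 21 days. All 3 arrays at 21 days lay lower, by a log2 change of -0.77 ± 0.19 (SE; adjusted p = 0.00817). Eef1d, a subunit of the exchange factor that recharges eEF1A with GTP, read 8.00, 8.07 and 7.88 untreated and 7.30, 6.93 and 7.49 at 21 days, with no overlap. Its log2 change was -0.74 ± 0.15 (SE; adjusted p = 0.00301). Eef1a1, the common form of the factor that delivers charged tRNAs, read 12.25, 12.64 and 12.83 against 12.08, 11.81 and 12.27. Its groups overlapped, and its call (-0.52, adjusted p = 0.0205) ended without replicate 2 or 3 of the untreated group (adjusted p = 0.0681 and 0.105) or replicate 2 at 21 days (adjusted p = 0.122). Eef1a2, the form made in neurons, muscle and endocrine cells, stood at 0.31 (adjusted p = 0.615).

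Among initiation factors, the 5 called lower came from 4 of the role groups. Eif3l read 9.07, 9.16 and 8.94 at 21 days, below all untreated arrays (log2 change -0.63 ± 0.11 SE, adjusted p = 0.000846). Eif3d, another eIF3 subunit and one that can itself bind a cap, read 10.37, 10.47 and 10.41 untreated and 9.69, 9.45 and 10.08 at 21 days (-0.68 ± 0.15 SE, adjusted p = 0.00377). The 2 groups did not overlap for either gene. Eif6, whose protein keeps the large ribosomal subunit from joining too early, read 8.28, 8.24 and 8.08 untreated and 7.66, 7.45 and 7.77 at 21 days (-0.57, adjusted p = 0.015). That call ended without replicate 1 of the untreated group (adjusted p = 0.0548) or replicate 2 at 21 days (adjusted p = 0.0791).
Eif4b, a helper of the eIF4A helicase, stood at -0.72 (adjusted p = 0.0148), and another probe set read -1.11 (adjusted p = 0.0324). Its remaining probe sets, both dim, read 0.14 (adjusted p = 0.323) and 0.14 (adjusted p = 0.544), the opposite way. Its call ended without replicate 2 or 3 of the untreated group (adjusted p = 0.0585 and 0.0681) or replicate 2 at 21 days (adjusted p = 0.0938). Eif2b5 encodes the catalytic subunit of eIF2B, which resets eIF2 after each start. It stood at -0.55 (adjusted p = 0.0413), a call that ended without any 1 of 5 of the 6 arrays (adjusted p from 0.0866 to 0.154).

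Both higher initiation genes depended on the probe set. Eif1a, which encodes a form of the scanning factor eIF1A, read 6.71, 7.38 and 7.35 untreated and 7.94, 8.03 and 8.16 at 21 days, with no overlap (0.90 ± 0.21 SE, adjusted p = 0.00629). Its other probe set read -0.22 (adjusted p = 0.723). Eif4ebp2, the sister of 4E-BP1, read 10.40, 10.42 and 10.48 untreated and 11.25, 10.94 and 11.03 at 21 days (0.64 ± 0.15 SE, adjusted p = 0.00643), again without overlap. Its other 2 probe sets read 0.04 and -0.02. Of the cap-binding complex itself, the helicase gene Eif4a1 stood at -0.38 (adjusted p = 0.109) and the dim Eif4e at 0.46 (adjusted p = 0.257). Eif5a, which helps the ribosome past difficult stretches, stood at 0.42 (adjusted p = 0.0644).

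Set against 24 h instead of untreated, 26 members were called at 21 days, 4 higher and 22 lower (34.9% of 63). Of all genes, 21.8% were called: 11.4% higher and 10.4% lower. The member median was -0.22 beside 0.06 over all genes, and the synthetase median was -0.60 with 9 lower and 1 higher. Lower were 9 synthetases (Gars, Mars1, Nars, Qars, Sars, Tars, Vars, Wars and Yars), 3 elongation genes (Eef1a1, Eef1d and Eef2) and 10 initiation genes. Eif3l was lower by 1.25 on the log2 scale (SE 0.11; 2.38-fold, adjusted p = 5.29e-07), and its 24 h and 21 day arrays, at 10.07 to 10.47 and 8.94 to 9.16, did not overlap. The acinar mean differed between these groups by more than 3 log2 units, since no 24 h array lay below 11.27 and no 21 day array above 7.78. With the acinar and leukocyte levels in the model, only Eef1d, Eif2b5, Eif3l and Wars of the 26 kept their call. The share of all genes called in that model was not counted. Many of the lost calls kept their size in that model, such as Eef2 at -1.09 (adjusted p = 0.0541), Nars at -1.03 (adjusted p = 0.118), Eif4b at -1.01 (adjusted p = 0.0862), Eif6 at -0.94 (adjusted p = 0.0553) and Tars at -0.93 (adjusted p = 0.0793). Others shrank, such as Sars to -0.17 (adjusted p = 0.739) and Eif1a to 0.15 (adjusted p = 0.777). The Gapdh 3′ minus 5′ signal ran from 3.70 to 3.90 at 24 h and from 4.77 to 4.92 at 21 days without overlap. With it in the model, 20 of the 26 kept their call, and the share of all genes was again not counted. The part of either measure in these differences was not tested. The higher members were Eif1a, Eif4ebp2, Eif4enif1 and Kars, the lysine synthetase (0.41, adjusted p = 0.00413). The other Eif1a probe set went the opposite way, at 7.70, 7.75 and 7.43 at 24 h and 7.10, 7.30 and 6.99 at 21 days. Averaging the Eif1a probe sets ended the call (0.15, adjusted p = 0.727). The call of the dim Eif4enif1 held in 1 of the 6 fits that left out 1 array. All 3 arrays at 21 days lay below all 24 h arrays for 17.5% of all genes and above them for 24.3%, beside 42.9% and 17.5% of members. This comparison shares the 21 day arrays with the preceding one.

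**Figure D4:**
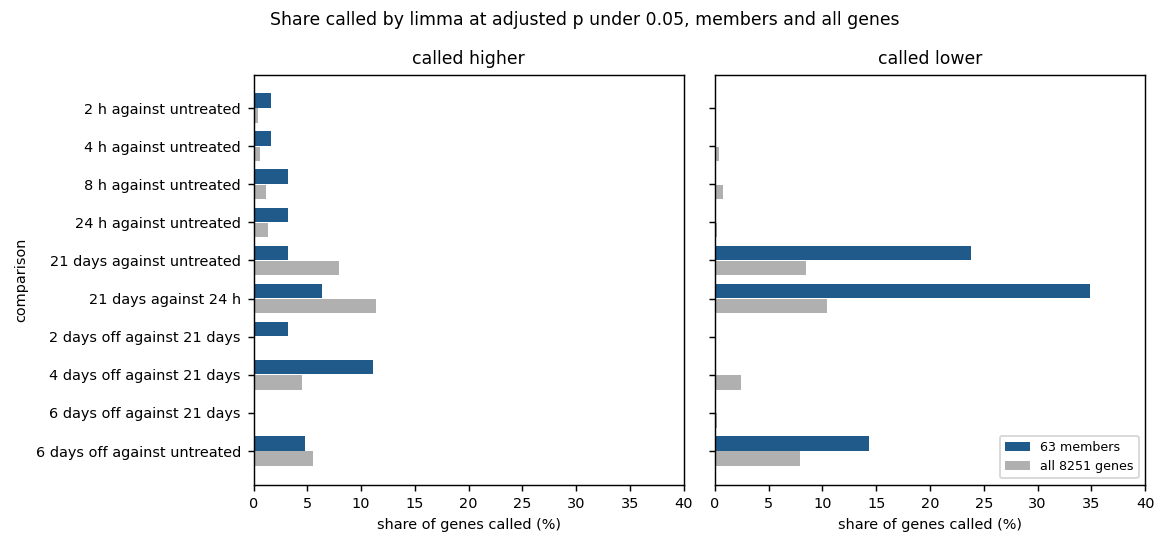
Share of the 63 members (blue) and of all 8251 genes (grey) called higher (left) or lower (right) in each of the 10 comparisons, in percent. At 21 days against untreated, 23.8% of members and 8.46% of all genes were called lower, and against 24 h the shares were 34.9% and 10.4%.

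After withdrawal some members rose from their 21 day level. At 2 days off, Hars and Tars were called higher (2 of 63, beside 0.158% of all genes higher and 0.0121% lower). At 4 days off, 7 were called, all higher: Eif1ax, Eif3c, Eif3d, Eif6, Hars, Rars and Tars, beside 4.52% of all genes higher and 2.39% lower. At 6 days off, limma called 0 members against 21 days, beside 0.121% of all genes higher and 0.218% lower. At unadjusted p under 0.05 there were 8 members higher and 6 lower, beside 6.1% and 8.7% of all genes. All 3 arrays lay above all 21 day arrays for 8.25% of all genes at 2 days off and 16% at 4 days off. For members the shares above were 17.5% and 25.4%. All 3 arrays lay below for 14.4% and 24.2% of all genes, beside 9.52% and 15.9% of members. These comparisons share the 21 day arrays. The mean of the beta cell markers was 9.68 at 21 days and 10.02, 10.29 and 9.97 at 2, 4 and 6 days off. At 4 days off the markers Abcc8 (1.69, adjusted p = 0.00846), Ero1b (0.86, adjusted p = 0.0163) and Chga (0.53, adjusted p = 0.0273) were called higher. The part of this shift in the members' values was not tested.
Tars read 7.39, 7.37 and 7.74 at 2 days off and 7.46, 7.45 and 7.70 at 4 days off, against 6.65, 6.30 and 6.75 at 21 days. All 6 arrays lay higher, by log2 changes of 0.93 ± 0.18 (SE; adjusted p = 0.0395) and 0.97 (adjusted p = 0.0101). Hars, the histidine synthetase, read 7.22, 6.51 and 7.71 at 21 days and 7.87, 8.68 and 8.61 at 2 days off. It was not lower at 21 days than in untreated islets (-0.02, adjusted p = 0.962), and at 2 days off it stood 1.24 ± 0.23 higher than at 21 days (SE; adjusted p = 0.0334).

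These calls rested on few arrays. At 2 days off both calls ended when replicate 1 or 2 of the 21 day group was left out, or replicate 2 or 3 of the 2 days off group, so that 0 members were called, and without replicate 3 at 21 days 4 were called. At 4 days off the count of 7 fell to 0 without replicate 2 at 21 days or replicate 1 at 4 days off, to 1 without replicate 1 at 21 days or replicate 3 at 4 days off, and to 4 without replicate 2 at 4 days off, and it was 10 without replicate 3 at 21 days. The 3 arrays at 21 days read 4.77 to 4.92 for the Gapdh 3′ minus 5′ signal, and the 2 and 4 days off arrays 3.09 to 4.29. With that signal in the model, limma called 0 members at 2 days off, where 12 had an unadjusted p under 0.05, and 1, Tars, at 4 days off. The share of all genes at that unadjusted level in that model was not counted. In the main fit at 2 days off it was 7.71% higher and 8.85% lower, beside 17 members higher and 1 lower. With the Gapdh signal in the model, Hars stood at 1.12 (adjusted p = 0.208) and Tars at 0.97 (adjusted p = 0.188) at 2 days off. At 4 days off Hars stood at 0.88 (adjusted p = 0.0633), against 0.97 in the main fit. Eif1ax, Eif3c, Eif3d, Eif6 and Rars stood there at 0.92, 0.51, 0.48, 0.45 and 0.59. Their main log2 changes were 1.03, 0.64, 0.58, 0.58 and 0.61. The part of that signal in these changes was not tested.

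Set against untreated islets, 12 members were called at 6 days off, 3 higher and 9 lower, beside 5.56% of all genes higher and 7.95% lower. Lower were 6 synthetases (Lars, Mars1, Nars, Sars, Wars and Yars), Eif2b5, Eif3l and Eif4e2, and higher were Eif1b, Eif3c and Rars. In the same comparison 4 of 11 beta cell markers were called lower (median -0.64), and 40 of 48 leukocyte markers lay higher with none called by limma and 4 higher at unadjusted p under 0.05. With the acinar and leukocyte levels in the model 9 members were called, 7 of them among the 12. Those lost were Eif1b (0.56, adjusted p = 0.0714), Eif2b5 (-0.62, adjusted p = 0.0577), Rars (0.64, adjusted p = 0.062), Sars (-0.46, adjusted p = 0.129) and Yars (-0.67, adjusted p = 0.0754). The other Yars probe set was not lower, at 7.19, 6.88 and 6.78 untreated and 7.28, 7.13 and 6.97 at 6 days off. Averaging the Yars probe sets also ended its call (-0.36, adjusted p = 0.08). Without the 4 arrays high in leukocyte markers, 15 were called and 10 of the 12 kept, with Rars (adjusted p = 0.0569) and Sars (adjusted p = 0.128) lost. Nars read 7.51, 7.66 and 7.99 at 6 days off, below all untreated arrays (2.58-fold lower, log2 change -1.37 ± 0.22 SE, adjusted p = 0.000674). Mars1 read 8.37, 7.99 and 8.31 and Lars 8.67, 9.11 and 9.07, both below every untreated array, with log2 changes of -0.95 (adjusted p = 0.00178) and -0.84 (adjusted p = 0.00213).
Rars, the arginine synthetase, went the other way. It read 8.17, 8.27 and 8.37 untreated and 9.0, 8.98 and 8.92 at 6 days off, with no overlap (0.70 ± 0.18 SE, adjusted p = 0.0151; 0.0645 without replicate 1 of the untreated group). Eif3c, a core eIF3 subunit, rose by 0.75 ± 0.18 (SE; adjusted p = 0.00864), from 9.73, 10.13 and 9.90 to 10.62, 10.69 and 10.69. The groups did not overlap, and the call ended without replicate 1 of the untreated group (adjusted p = 0.0518). Leaving out that array left 6 members called in all. Eef2 (-0.44, adjusted p = 0.132), Tars (-0.35, adjusted p = 0.226) and Vars (-0.40, adjusted p = 0.16) were not called at 6 days off. Whether their changes differed from those of Nars and Mars1 was not tested. Of all genes, 13.8% had all 3 arrays at 6 days off below all untreated arrays and 11.6% had them above. For members the shares were 20.6% and 7.94%.

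**Figure D5:**
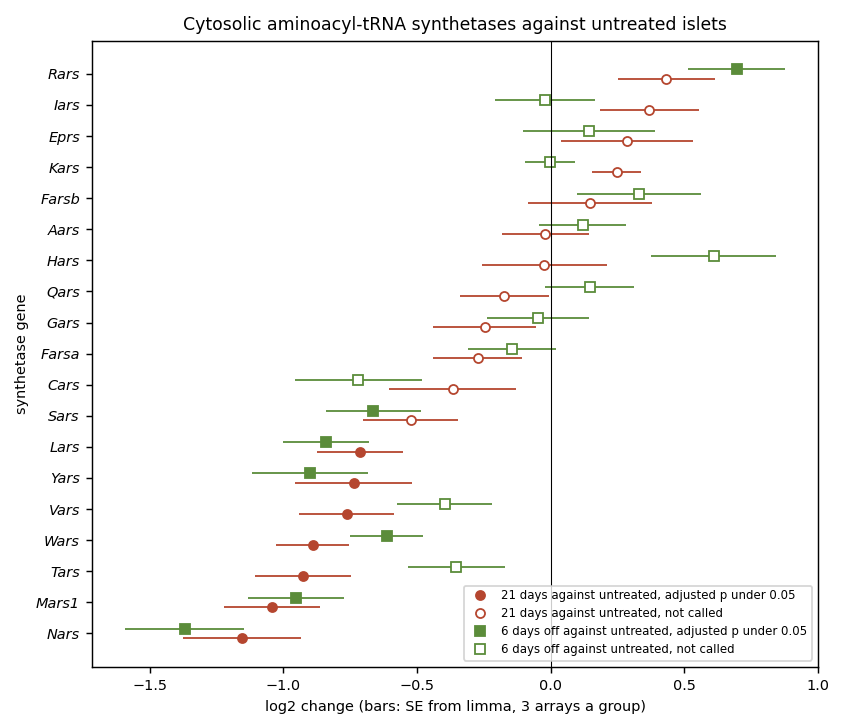
Log2 change against untreated islets for the 19 synthetases at 21 days (circles) and 6 days off (squares), with SE bars from limma (3 arrays a group) and filled symbols for calls. Nars, Mars1, Wars, Yars and Lars are filled and below 0 at both times, and Rars is filled above 0 at 6 days off.

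Genes that work beside the members were read from 4 lists. Of 38 translation regulators, 1 was called at each of 2, 4 and 24 h, namely Bzw2, which encodes a mimic of eIF5 and rose by 1.30 at 2 h (adjusted p = 0.000501) and 1.25 at 21 days (adjusted p = 5.66e-05). At 8 h 4 of the 38 were called: Bzw2 (1.36, adjusted p = 0.000149) and Abcf1 (0.56, adjusted p = 0.0348) higher, and Dap (-0.82, adjusted p = 0.0186) and Tsc2, which restrains the growth kinase mTORC1 (-0.54, adjusted p = 0.0368), lower. At 21 days 5 of the 38 were called higher and 6 lower. After Bzw2 the largest changes were those of Etf1, the stop codon release factor (1.0, adjusted p = 4.39e-05), Bzw1, the sister of Bzw2 (1.0, adjusted p = 0.022), and Pdcd4, which binds the helicase eIF4A (0.92, adjusted p = 0.041). The 6 lower ones stood between -0.88 and -0.42. Of 16 genes for tRNA charging and modification, 2 were higher at 21 days, among them Aimp1, a scaffold of the multisynthetase complex (0.76, adjusted p = 0.0351), and 1 was lower, the mitochondrial Tars2 (-0.58, adjusted p = 0.0321). None of 6 mitochondrial translation factors was called by limma at 21 days against untreated, and none had an unadjusted p under 0.05.

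The amino acid response genes of Atf4 that are no members were mixed at 21 days, with 3 of 28 called higher and 3 lower and a median of -0.04. Atf3 stood at 1.31 (adjusted p = 0.0127) and the serine synthesis gene Psat1 at 0.83 (adjusted p = 0.0475). On the lower side were the amino acid carrier gene Slc1a4 (-1.02, adjusted p = 0.000262) and Nupr1 (-2.54, adjusted p = 0.00601). The other two called genes, 1 higher and 1 lower, changed less. Psat1 had risen earlier, by 1.96 at 8 h (adjusted p = 0.000642) and 1.93 at 24 h (adjusted p = 0.000617). Of the 5 synthetases with TGATGNAA in the window, Tars and Yars were called lower at 21 days, and Aars (-0.02), Gars (-0.25) and Iars (0.37) were not called. Of the 7 synthetases called lower, 4 (Lars, Nars, Vars and Wars) had no window, so the motif is unknown for them. Of the 14 genes with CACGTG, Eef2 and Tars were called lower at 21 days, or 14.3%, beside 18.8% of the 48 members with a window and 8.46% of all genes. None of the 14 was called between 2 and 24 h, and for Eif4ebp1, called at all 4 of those times, there was no window to search.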

How the data were processed

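Affymetrix arrays were run on total RNA amplified in 2 rounds, per the labels. The deposited values are log2 signals that the authors made with RMA, as the submitters' processing notes say. The RMA version is not given in the sources used here. They were used without further scaling. The table has 12488 rows; 66 control probe sets were left out and 12422 tested. Symbols came from the platform annotation, and probe sets with 1 symbol stand for 8251 genes.

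All 27 arrays were fitted with limma 3.58.1 (R 4.3.3, lmFit and eBayes, two-sided) with 9 group means and 18 residual degrees of freedom, and Benjamini-Hochberg adjustment ran over 12422 probe sets of each comparison. A gene was called at adjusted p under 0.05. The script was tested on simulated data. The number of arrays, 3 a group, limits the precision. Members, roles and lists were chosen with earlier results of these data known. Any member could be named, with statistics for called members and a core panel. Outside this rule, statistics were also given for Eif3j1, which was not called, and log2 changes for Aars and Iars, which hold a motif. List genes were named only where called, at most the 4 largest changes a list and comparison. Alternatives were quantile normalization, median centring, no probe sets among the dimmest 40%, the 6 arrays alone, a replicate block, probe sets averaged per gene, a trend and robust variance, marker covariates and leaving out each array. Fits without 4 leukocyte-rich arrays and with the Gapdh signal were chosen after seeing the data. Coordinates and sequences are RefSeq's (GRCm38.p6).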

Additional observations from a re-analysis of the deposited data

Results flagged for a closer look

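Members were flagged by a rule that asked for a limma call at 21 days against 24 h. It also asked for a 24 h mean above the untreated mean and a 21 day mean below it, with a call in 1 of those comparisons or both. The rule gave 12 members, so their calls at 21 days against 24 h follow from it. Only Eif3l of the 12 was called at 24 h against untreated, so a rise at 24 h was not shown for the others. Wars, for example, read 9.74, 9.69 and 9.57 untreated and 9.70, 9.57 and 9.81 at 24 h. How many of all genes meet the rule was not counted. Single arrays crossed the untreated mean: 1 of the 24 h arrays of each of Eif3d, Mars1, Wars and Yars read below it. The log2 changes from 24 h to 21 days were -1.25 for Eif3l and -0.78 for Eif3d of eIF3, -1.14 for Eif2b5 of eIF2B, -0.94 for Eif4b and -0.91 for Eif6. The 2 dim probe sets of Eif4b read 0.20 and 0.27 there, the opposite way and not called. For the elongation genes they were -1.21 for Eef1d and -1.02 for Eef2. For the synthetases they were -1.26 for Vars, -1.24 for Mars1, -1.03 for Tars, -0.92 for Wars and -0.91 for Yars, whose second probe set read 0.46 (adjusted p = 0.01), the opposite way. With the acinar and leukocyte levels in the model, 4 of the 12 kept their call: Eef1d, Eif2b5, Eif3l and Wars. The lost calls read -1.09 for Eef2, -1.01 for Eif4b, -0.94 for Eif6, -0.93 for Tars, -0.88 for Mars1, -0.88 for Vars, -0.86 for Eif3d and -0.58 for Yars in that model, with adjusted p from 0.0541 to 0.308.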

How the results depend on the processing

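Of 70 calls of a member in a comparison, none reversed, 38 held without any 1 array, and 70 held under median centring, 69 with a trend and robust variance, 63 under quantile normalization and 60 with probe sets averaged per gene. Fewer held elsewhere: 61 without the 4 leukocyte-rich arrays, 55 with the Gapdh signal in the model, 40 with the 6 arrays of a comparison alone and 38 with acinar and leukocyte levels in the model. With those 6 arrays alone, 0 members were called at 2, 4, 8 and 24 h and at 2 days off, and 1 at 6 days off against untreated; fewer arrays then set the spread. With acinar and leukocyte levels in the model, 3, 2, 4 and 0 members were called at 2, 4, 8 and 24 h, 4 at 21 days against 24 h and 0 at 2 days off. With the Gapdh signal in it, 1 was called at 24 h, 0 at 2 days off and 1 at 4 days off. Without the 4 leukocyte-rich arrays, 0 were called at 2 days off and 4 at 4 days off. Quantile normalization gave 4 at 4 days off, 3 of the 7 and 1 lower, and gave 1 at 6 days off against 21 days, as did leaving out the dimmest probe sets, and averaging probe sets per gene left 1 at 8 h. The causes were not tested, and the share of all genes called was not counted under these alternatives.

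Leaving out 1 array gave 1 to 1 members at 2 h, 0 to 1 at 4 h, 1 to 3 at 8 h, 1 to 2 at 24 h, 13 to 18 at 21 days and 18 to 28 against 24 h. It gave 0 to 4 at 2 days off, 0 to 10 at 4 days off, 0 to 0 at 6 days off and 6 to 15 at 6 days off against untreated. Same-numbered arrays deviated together at r over 0.1 in 11 of 30 pairs (range -0.23 to 0.36). Differently numbered arrays were not compared, so this check cannot tell whether the numbers pair the samples. The main fit did not pair them. A replicate block kept 69 of 70 calls and gave 1 member at 6 days off against 21 days. Signal near background limits Eef1g and Eif4enif1.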
